A study of Mus musculus with 16 samples.

Results

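Constant MyoD regions far from genes are stretches of the mouse genome that carried a peak of the muscle transcription factor MyoD in every MyoD library of the series and lay more than 50 kb from any protein-coding gene body. The peaks of the 4 MyoD lists on chromosomes 1 to 19 and X were merged wherever they overlapped or touched, which gave 24264 regions. Of these, 9909 held a peak of all 4 lists and are called constant, and 1452 of the constant regions (14.7%) passed the distance rule against the 21631 protein-coding genes of the RefSeq annotation of GRCm38.p6, the assembly behind mm10. They are called far regions below. They were selected on the presence of a MyoD peak in each list, so that presence is no finding. The other constant regions were 2534 that lay outside genes within 50 kb and 5923 that overlapped a gene body.

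The cells were cultured satellite cells, which are muscle stem cells, from the hindlimb of C57BL/6 mice. Chromatin immunoprecipitation with sequencing (ChIP-seq) was done with an antibody to MyoD and with an antibody to acetylated lysine 27 of histone H3 (H3K27ac), on 2 LncMyoD-KD and 2 control libraries each, after 48 h of small interfering RNA treatment. LncMyoD-KD denotes knockdown of LncMyoD, a long noncoding RNA, and controls are known as such from their title and genotype label only, because the treatment text that names LncMyoD is the same for every sample. RNA was not measured, so depletion of LncMyoD was not checked, nothing in the labels ties replicates to separate animals or cultures, and any p-value measures only the spread between these libraries. No age or sex is given for the animals, and the 8 input samples were not used here.

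MyoD is a basic helix-loop-helix factor that pairs with E proteins and binds short DNA words called E-boxes, most often inside enhancers. H3K27ac is placed by the acetyltransferases CBP and p300 on nucleosomes beside active promoters and enhancers, and enhancers can act on genes far away in the linear sequence. Gene deserts, long stretches with no protein-coding gene, often surround developmental regulators in mammals and hold many of their enhancers.

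The peak lists on chromosomes 1 to 19 and X held 16440 and 13069 MyoD peaks in LncMyoD-KD libraries 1 and 2, against 17724 and 17558 in control libraries 1 and 2. The H3K27ac lists held 54008 and 39934 peaks in LncMyoD-KD libraries 1 and 2, against 46207 and 52998 in control libraries 1 and 2. The second LncMyoD-KD library had the fewest peaks with either antibody. Of 8 defining genes of the labelled cells, Myod1, Pax7, Myog, Des, Cdh15, Itga7 and Megf10 had peaks of both antibodies in all libraries within 10 kb of the gene body, and Myf5 had H3K27ac in all 4 and MyoD in 2 libraries. Of 35 markers of other cell types, 15 had an H3K27ac peak within 1 kb of the gene in all 4 libraries and 14 in none. The windows of 10 kb and 1 kb differ, so these counts are not like for like. The part of other cells in the results was not tested.

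No genome sequence was used here, so sequence was read only where a far region overlapped a RefSeq promoter window, 250 bp before to 50 bp after an annotated transcript start. Far regions met 32 such windows, all of them of long noncoding RNAs (lncRNAs), as the distance rule removes coding starts. The E-box CAGCTG, which reads the same on both strands, stood in 21 of the 32 windows (65.6%). It stood in 43.1% of 109 windows at constant regions within 50 kb of a gene, in 50.1% of 810 windows at constant regions that overlapped genes, in 53.0% of 185 lncRNA windows at constant regions other than far ones, in 17.7% of 11588 lncRNA windows and in 16.3% of all 32851 windows of the annotation. The E-box CAGGTG, with its reverse complement CACCTG, stood in 12.5% of the far windows, in 27.6% of the lncRNA windows at other constant regions and in 20.2% of all windows. The general form CANNTG, which includes both of the others, stood in 96.9% of the far windows, in 83.8% of the lncRNA windows at other constant regions and in 72.3% of all windows. These shares describe letters and not binding. The far regions at Gm33078, Gm36894, Gm19705 and Gm34113 each met a pair of windows, which overlap at all of these but Gm33078. The windows are therefore not all separate sites. The median summit of the 4 lists fell inside a window for 13 far regions, and a CAGCTG lay within 50 bp of that summit in 9 of them (69.2%), against 66.7% of 36 constant regions near genes and 58.5% of 383 in genes. A CANNTG lay within 50 bp in the same 9 far regions (69.2%), against 86.1% near genes and 85.6% in genes.

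Of the far regions with a window, 6 are shown because they carry the description: the strongest, at Lincmd1, then 4 with a CAGCTG within 50 bp of the summit in order of MyoD rank, and the region at Gm35992, which stood farthest apart between the groups. CAGCTG is in capitals, the sequences run 5′ to 3′ on the transcript's strand, and they are RefSeq's for GRCm38.p6. The windows are chr1:20669632-20669931 (plus strand) for Lincmd1, chr11:57911859-57912158 (plus) for Gm33078, chr16:19884225-19884524 (minus) for A930003A15Rik, chr16:31509074-31509373 (plus) for Gm46560, chr12:112237136-112237435 (plus) for Gm36894 and chr1:92379307-92379606 (plus) for Gm35992.
Lincmd1: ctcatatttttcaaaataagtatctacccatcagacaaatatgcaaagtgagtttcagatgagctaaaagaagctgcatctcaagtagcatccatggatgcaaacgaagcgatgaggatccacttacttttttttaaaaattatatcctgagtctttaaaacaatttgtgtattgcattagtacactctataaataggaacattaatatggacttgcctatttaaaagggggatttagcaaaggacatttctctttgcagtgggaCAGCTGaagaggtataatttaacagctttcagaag
Gm33078: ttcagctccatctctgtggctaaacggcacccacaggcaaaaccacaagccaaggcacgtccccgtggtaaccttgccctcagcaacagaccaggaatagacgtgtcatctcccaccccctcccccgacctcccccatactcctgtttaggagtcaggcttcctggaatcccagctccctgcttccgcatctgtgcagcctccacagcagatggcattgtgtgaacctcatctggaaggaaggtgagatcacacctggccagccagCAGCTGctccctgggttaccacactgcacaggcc
A930003A15Rik: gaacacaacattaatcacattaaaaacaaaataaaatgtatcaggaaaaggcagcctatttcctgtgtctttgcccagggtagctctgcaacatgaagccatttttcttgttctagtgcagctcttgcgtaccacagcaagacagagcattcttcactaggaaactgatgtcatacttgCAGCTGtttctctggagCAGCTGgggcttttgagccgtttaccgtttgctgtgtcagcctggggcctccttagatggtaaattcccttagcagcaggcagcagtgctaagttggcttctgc
Gm46560: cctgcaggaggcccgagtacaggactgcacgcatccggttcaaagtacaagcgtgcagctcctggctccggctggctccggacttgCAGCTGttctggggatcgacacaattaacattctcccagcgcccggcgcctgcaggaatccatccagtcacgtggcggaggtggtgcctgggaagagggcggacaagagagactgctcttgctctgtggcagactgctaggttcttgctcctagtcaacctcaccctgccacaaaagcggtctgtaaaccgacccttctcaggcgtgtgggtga
Gm36894: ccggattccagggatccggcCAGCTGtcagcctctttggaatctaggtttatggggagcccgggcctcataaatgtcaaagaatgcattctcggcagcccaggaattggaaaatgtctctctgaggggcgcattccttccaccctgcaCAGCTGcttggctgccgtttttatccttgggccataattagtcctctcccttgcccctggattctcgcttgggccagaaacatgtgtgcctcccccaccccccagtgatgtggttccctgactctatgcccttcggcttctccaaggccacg
Gm35992: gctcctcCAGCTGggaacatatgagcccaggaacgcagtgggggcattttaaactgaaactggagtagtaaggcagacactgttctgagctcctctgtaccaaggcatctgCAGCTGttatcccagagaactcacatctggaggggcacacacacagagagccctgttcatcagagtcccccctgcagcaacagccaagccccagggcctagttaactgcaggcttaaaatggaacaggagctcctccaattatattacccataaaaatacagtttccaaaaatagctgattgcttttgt

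The CAGCTG in the Lincmd1 window lay 71 bp from the median MyoD summit, and that of Gm33078 lay 26 bp from it. Those nearest the median summit at A930003A15Rik, Gm46560, Gm36894 and Gm35992 lay 22, 21.5, 25 and 14 bp from it. The summits of the 4 lists spanned 16 bp at Lincmd1, 72 at Gm33078, 77 at A930003A15Rik, 7 at Gm46560, 275 at Gm36894 and 43 at Gm35992. Several distances are thus smaller than this span. At Lincmd1 the median summit lay outside the window, so the sequence around it was only partly read. The windows of A930003A15Rik, Gm36894 and Gm35992 held 2 copies each. Acetylation differed among these regions. Those at Lincmd1, A930003A15Rik, Gm46560 and Gm35992 had an H3K27ac peak in all 4 libraries, that at Gm33078 in 2 libraries, and that at Gm36894 in none.

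The Lincmd1 region belongs to the locus of 2 muscle microRNAs, which are printed because far regions lie within a few kilobases of them. Lincmd1 is an lncRNA of differentiating muscle, miR-206 is a microRNA found mainly in skeletal muscle, and miR-133b is its neighbour. The seed (bases 2 to 8) is in capitals, and the 2 seeds differ. The mature sequences are RefSeq's and lie on the plus strand of GRCm38.p6, at chr1:20679055-20679076 for miR-206-3p and chr1:20682834-20682855 for miR-133b-3p.
miR-206-3p: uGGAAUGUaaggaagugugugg
miR-133b-3p: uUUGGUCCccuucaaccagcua

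A pair of far regions lay on the Lincmd1 side of these microRNAs. The region on chromosome 1 from 20669573 to 20670245, which overlaps the Lincmd1 start, lay 8.77 kb from Mir206 and had a MyoD fold enrichment of 29.5 and 22.3 in LncMyoD-KD libraries 1 and 2, against 24.8 and 27.8 in control libraries 1 and 2. The region from 20677844 to 20678412 lay 0.598 kb from Mir206 and had folds of 17.3 and 19.6 in LncMyoD-KD, against 17.5 and 16.2 in control libraries. A fold is the authors' enrichment over background at the peak summit, a linear ratio that belongs to its own list, so folds of different libraries are set side by side as the lists give them and compared as ranks. Both regions lay in a single merged H3K27ac region of 15041 bp with peaks of all 4 libraries. H3K27ac folds at the first region were 19.3 and 18.5 in LncMyoD-KD and 18.8 and 23.4 in control libraries. The other microRNA genes with a far region within 20 kb included Mir181a-1 and Mir181b-1, with far regions 6.87 and 8.01 kb from Mir181a-1, and Mir3089 with one at 0.932 kb. In all, 14 far regions lay within 20 kb of 12 microRNA genes. Of the 14, 11 had H3K27ac in all 4 libraries, 1 near Gm51286 had it in 3, and 2 had none, near Mir467h and near Mir7214 and Mir7216.

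Far regions had MyoD folds close to those of the other constant regions. Their median MyoD fold was 8.84 in LncMyoD-KD library 1, 7.48 in LncMyoD-KD library 2, 8.59 in control library 1 and 8.40 in control library 2. For the other 8457 constant regions it was 8.84, 7.84, 8.92 and 8.61 in the same libraries. Median widths were 504 and 507 bp. Because a fold belongs to its list, each region was also given its rank percentile among the 9909 constant regions of a library, with 100 the strongest. The median percentile of far regions was 50.6 and 47.7 in LncMyoD-KD libraries 1 and 2, against 48.2 and 48.6 in control libraries 1 and 2. The far minus other difference averaged -2.32 percentile points (exact two-sided sign-flip test over 4 libraries, p = 0.25, smallest possible 0.13). Without the regions whose fold was below 3 in any list, a limit chosen after the data were seen, it was 0.416 points (exact p = 1), so the sign rests on those weak regions. Without control library 2 it was 0.789. The top 10% of constant regions took in 9.64% and 9.92% of the far regions in LncMyoD-KD and 10.1% and 9.85% in control libraries.

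The strongest far regions held very high MyoD signal in every library. Over the 20 with the highest mean rank, all at a mean percentile of at least 98.0, folds spanned 19.2 to 41.6. The first was on chromosome 13 from 37691819 to 37692655, between Ly86 and Rreb1, the gene of a zinc finger transcription factor downstream of Ras signalling, and 85.7 kb from Rreb1. Its folds were 41.6 and 34.9 in LncMyoD-KD, against 37.7 and 35.4 in control libraries. The next was on chromosome 3 from 58024499 to 58025467, 177 kb from Pfn2, which encodes the actin-binding protein profilin 2. Its folds were 41.3 and 32.9 in LncMyoD-KD, against 37.3 and 33.1 in control libraries, and no H3K27ac peak overlapped it in any library. The region 126 kb from Ncam1, the neural cell adhesion molecule gene, had 37.9 and 32.9 in LncMyoD-KD, against 34.7 and 33.5 in control libraries. In each of these 3 regions library 1 of a group had the higher fold and the groups overlapped.

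A region 181 kb from Qk, which encodes the RNA-binding protein Quaking, had folds of 33.2 and 30.2 in LncMyoD-KD, against 31.1 and 32.5 in control libraries. One 52.9 kb from Sik1, which encodes a kinase acting on class II histone deacetylases, had 29.5 and 33.3 in LncMyoD-KD, against 34.7 and 32.5 in control libraries. One 253 kb from Foxo1, a forkhead transcription factor gene, had 30.2 and 25.1 in LncMyoD-KD, against 27.4 and 31.5 in control libraries. By fold the groups overlapped in all 3. By rank they overlapped near Sik1 and Foxo1, while near Qk both LncMyoD-KD ranks (99.68 and 99.68) were below both control ranks (99.71 and 99.71). Among the 20, the difference in fold between replicates of a group was widest near Cd44, which encodes a hyaluronan receptor. That region, 56.7 kb from the gene, had 37.9 and 23.5 in LncMyoD-KD, against 31.1 and 24.8 in control libraries. Of the 20 regions, 18 had H3K27ac in all 4 libraries, with H3K27ac folds of 4.83 to 31.7 and H3K27ac regions of 1148 to 15041 bp. The other two were the Pfn2 region and one 387 kb from Rgmb, which encodes a coreceptor for bone morphogenetic proteins. The Pfn2 region had no H3K27ac peak, and the region near Rgmb had one in LncMyoD-KD library 1 alone.

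**Figure D1:**
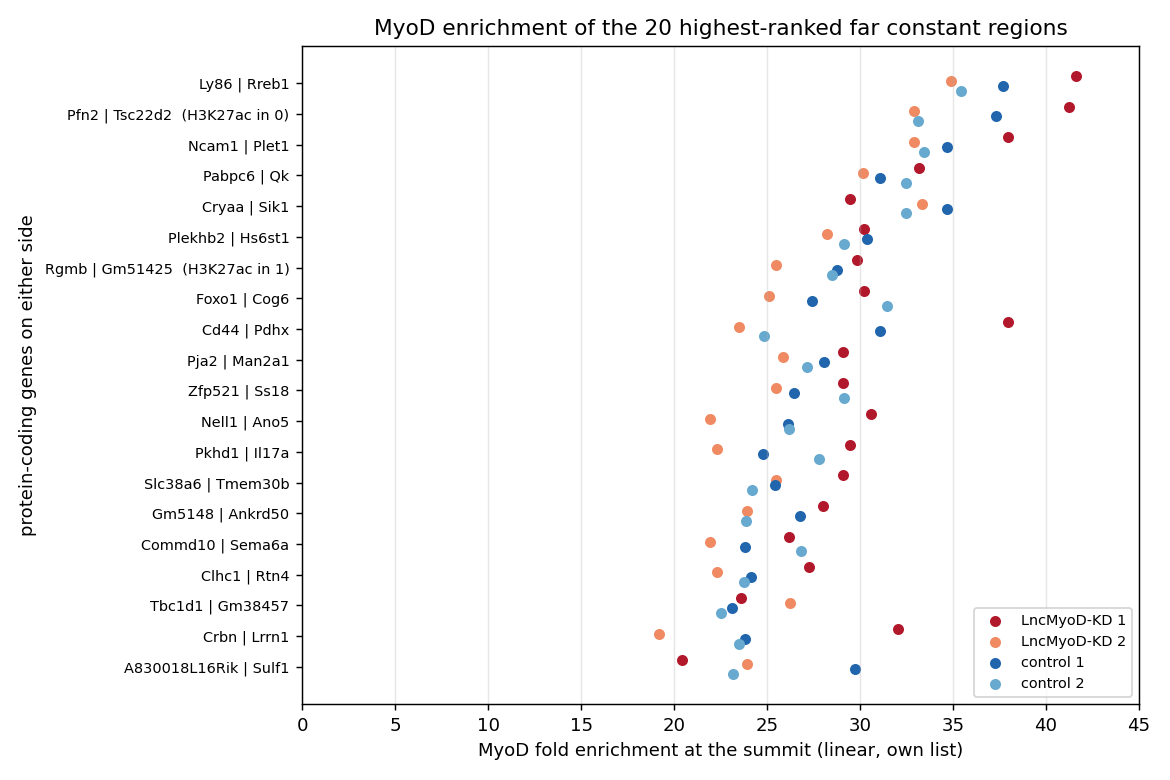
MyoD fold enrichment at the summit (linear axis from 0) of the 20 far regions with the highest mean rank, each named by the protein-coding genes on its left and right; points are the 2 LncMyoD-KD (red) and 2 control (blue) libraries. The Ly86 and Rreb1 region stands at the top with 34.9 to 41.6, and the points of the groups are intermixed in most rows.

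At the other end stood a small set of very weak regions. In 55 far regions (3.79%) the fold was below 3 in at least 1 list, against 29 of the 8457 other constant regions (0.343%). Of the 55, 43 lay side by side within 38.3 kb at the start of chromosome 9, from 3000009 to 3038302, with folds of 1.26 to 2.19 and no protein-coding gene before them. Of these 43, 2 had an H3K27ac peak, each in 1 library. The other 12 were scattered, among them the widest far region, 5822 bp on chromosome 17 from 39843010 to 39848831, and the region on chromosome 2 from 98663720 to 98664083 with folds of 1.42 and 1.51 in LncMyoD-KD, against 1.49 and 1.47 in control libraries. The low folds of the block were seen in all 4 MyoD libraries. What these weak regions are was not tested. Of the 55, 51 had no H3K27ac peak in any library, so the acetylation values below are also given without them, as are the other values named beside them.

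Most far regions were acetylated, though less often than constant regions closer to genes. An H3K27ac peak overlapped 81.0% of far regions in LncMyoD-KD library 1 (95% Clopper-Pearson interval 78.9 to 83.0) and 66.3% in LncMyoD-KD library 2 (63.8 to 68.8), against 74.8% in control library 1 (72.5 to 77.0) and 78.6% in control library 2 (76.4 to 80.7). These intervals cover counting over regions only. In the same order of libraries the shares were 85.3%, 73.8%, 80.9% and 82.2% for constant regions outside genes within 50 kb, and 89.1%, 78.0%, 85.3% and 86.3% for those overlapping genes. The far share was the lowest of the 3 classes in all 4 libraries. The other classes can include protein-coding promoters, which the distance rule leaves out of the far class, and their part in the difference was not tested. The far minus near difference ran from -7.47 to -3.66 points with a mean of -5.39, and the far minus gene difference from -11.7 to -7.73 points with a mean of -9.49 (exact two-sided sign-flip tests, p = 0.13 for each, the smallest that 4 libraries allow, so these tests could not reach 0.05). Without the regions of fold below 3 the means were -2.60 and -6.72 points, and all 4 libraries kept the sign.

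Counted over all libraries, 938 far regions (64.6%) had H3K27ac in all 4, 135 in 3, 72 in 2, 65 in 1, and 242 (16.7%) in none. The class within 50 kb of a gene had 72.0% in all 4 and 12.3% in none, and the class overlapping genes 76.9% and 9.30%. Without the regions of fold below 3, the far shares were 67.1% and 13.7%. Far regions thus made up 21.9% of the 1104 constant MyoD regions without any H3K27ac peak and 14.7% of all constant regions, or without the regions of fold below 3, 18.3% of 1041 and 14.2% of all.

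The far share with H3K27ac in all 4 libraries fell with distance from 50 to 500 kb and was higher in the 52 regions beyond. In the bins of 50 to 100, 100 to 200, 200 to 500 and over 500 kb from a gene, which held 568, 445, 387 and 52 regions, H3K27ac in all 4 libraries was found at 69.5%, 66.3%, 55.0% and 67.3%. The bin of 200 to 500 kb holds the block at the start of chromosome 9, and without regions of fold below 3 its share was 62.6%. The bin of 10 to 50 kb, just inside the distance limit, had 69.0%, close to the first bin beyond it. Higher shares stood at 0 to 10 kb (75.5%) and in genes (76.9%). Without regions of fold below 3, the share was 75.6% at 0 to 10 kb and 69.2% at 10 to 50 kb, against 67.1% for far regions.

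**Figure D2:**
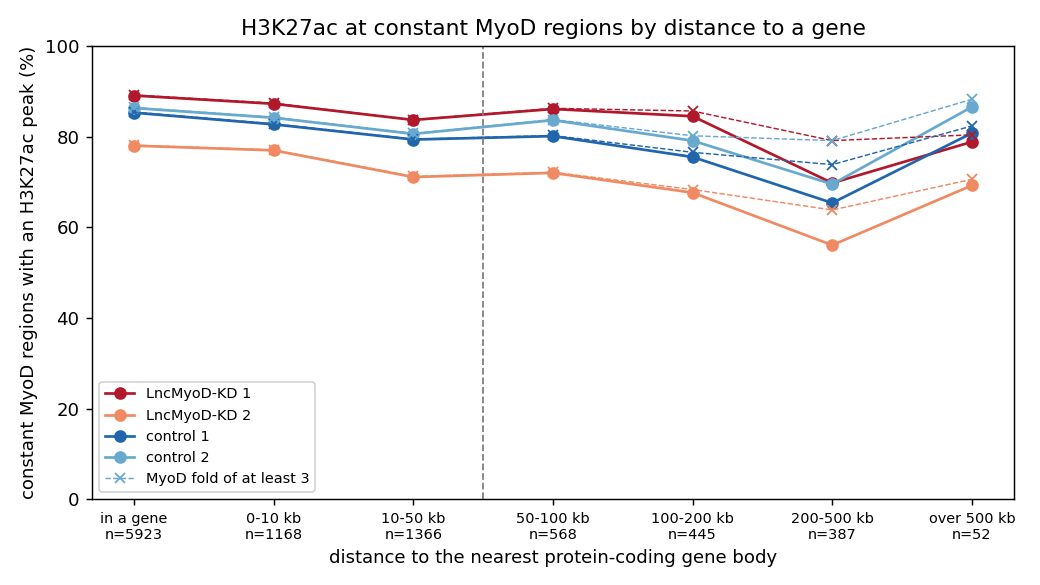
Share of constant MyoD regions (%, from 0 to 100) that overlapped an H3K27ac peak, by distance to the nearest protein-coding gene body, with one line per H3K27ac library; dashed lines and crosses leave out regions with a MyoD fold below 3, and the vertical dashed line marks 50 kb. LncMyoD-KD library 2 is lowest in every bin, and the dip at 200 to 500 kb is shallower without the weak regions.

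Acetylation was more frequent at stronger MyoD regions in every distance class. Constant regions were cut into quintiles by mean MyoD rank. Among far regions, H3K27ac in all 4 libraries was found at 40.1%, 54.2%, 68.3%, 75% and 86.9% of the quintiles in order of increasing rank. The share with no H3K27ac peak was 36.5% in the weakest quintile and 3.36% in the strongest. With all regions kept, the far share of 86.9% in the strongest quintile stood beside 88.6% near genes and 91.3% in genes. In the weakest quintile 40.1% stood beside 54.9% and 64.3%. Averaged within quintiles, again with all regions kept, the far minus near difference was -4.83 points (exact sign-flip p = 0.13). Without regions of fold below 3, the weakest quintile of far regions had 49.0% in all 4 libraries, against 55.2% near genes and 64.7% in genes. Its share with no H3K27ac peak was then 24.1%, against 24.5% near genes and 15.6% in genes.

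**Figure D3:**
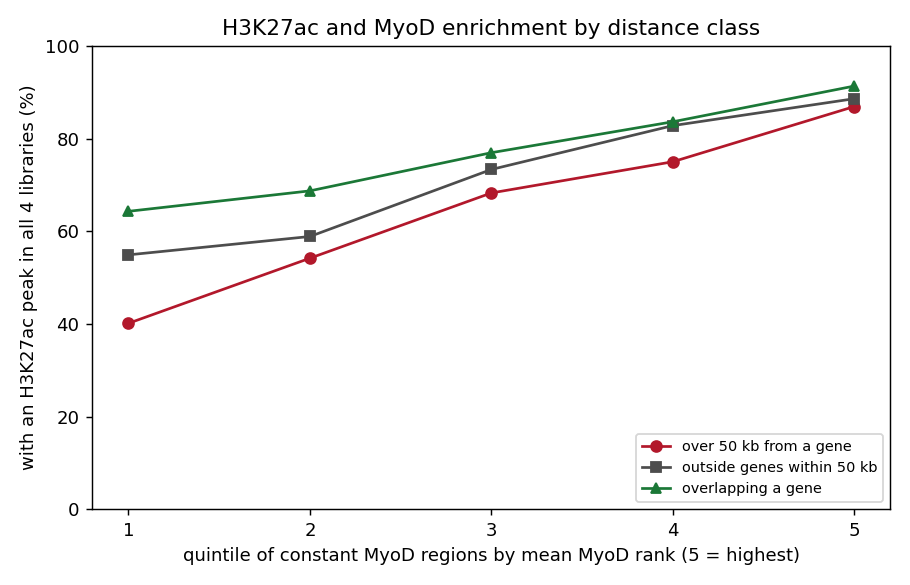
Share of constant MyoD regions (%, from 0 to 100) with an H3K27ac peak in all 4 libraries, by quintile of mean MyoD rank (5 is the strongest), for regions over 50 kb from a gene (circles), outside genes within 50 kb (squares) and overlapping a gene (triangles). The 3 lines climb together, the far line between 40.1% in the weakest and 86.9% in the strongest quintile, and lie closest in the strongest quintile.

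The 5 highest-ranked far regions without H3K27ac were examined next. After the Pfn2 region came one 92.5 kb from Castor2 on chromosome 5, with folds of 22.1 and 23.1 in LncMyoD-KD, against 22.5 and 14.5 in control libraries. A region on chromosome 17 from 4626072 to 4626694, between Nox3 and Arid1b, had folds of 36.8 and 10.5 in LncMyoD-KD, against 40.9 and 13.6 in control libraries. It was thus high in replicate 1 of both groups and low in replicate 2 of both. A region 76.9 kb from Fgf9, a fibroblast growth factor gene, had 15.8 and 15.3 in LncMyoD-KD, against 12.2 and 14.2 in control libraries, with both LncMyoD-KD folds above both control folds. The last, 85.4 kb from Ehbp1, had 15.8 and 9.40 in LncMyoD-KD, against 13.5 and 16.9 in control libraries, and the groups overlapped.

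Seen from the acetylation side, distal H3K27ac regions carried constant MyoD more often than those close to genes. Of 2555 merged H3K27ac regions with peaks of all 4 libraries that lay over 50 kb from a gene, 924 (36.2%) overlapped a constant MyoD region, against 32.6% of those outside genes within 50 kb and 23.9% of those overlapping genes. Set against each MyoD list on its own, the far share was 48.0% and 39.4% in LncMyoD-KD libraries 1 and 2, against 47.8% and 47.0% in control libraries 1 and 2. It exceeded the near share by 3.14 to 4.32 points and the gene share by 11.8 to 14.9 points in all 4 lists (exact two-sided sign-flip tests, p = 0.13 for each). The H3K27ac regions behind far MyoD regions were narrower. Their median width was 2012 bp, against 2126 bp near genes and 2374 bp in genes, and 5.94% exceeded 5 kb, against 11.2% and 13.2%.

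LncMyoD-KD and control libraries were then compared over the far regions. The mean share with H3K27ac was 73.7% ± 10.4 in LncMyoD-KD and 76.7% ± 2.68 in control libraries (SD, n = 2 each), a difference of -3.03 points (exact permutation test over 6 assignments, p = 1, smallest possible 0.33). Without LncMyoD-KD library 2, which had the fewest H3K27ac peaks, the difference was 4.30 points, so its sign rests on that library. The MyoD rank of far regions, chosen for being present in both groups, is a description only. The mean of the library medians was 49.2 ± 2.07 in LncMyoD-KD and 48.4 ± 0.268 in control libraries (SD, n = 2 each).

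Few far regions had an acetylation pattern that followed the groups. An H3K27ac peak in both LncMyoD-KD and no control library was found at 3 far regions (0.207%), where the background over all 9909 constant regions was 0.222%. A peak in both control and no LncMyoD-KD library was found at 10 (0.689%), against a background of 0.404%. The 3, named after their values were seen, lay 50.3 kb from Msx1, a homeobox gene of limb mesenchyme, 104 kb from Prex1 and 126 kb from Epb41l4a. At the Msx1 region the H3K27ac folds were 7.10 and 3.95 in LncMyoD-KD libraries. The region of the 10 with the strongest MyoD lay 57.1 kb from Slc7a11, a cystine transporter gene, with MyoD folds of 25.1 and 13.9 in LncMyoD-KD, against 12.8 and 18 in control libraries.

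By MyoD rank, both LncMyoD-KD libraries stood above both control libraries at 251 far regions (17.3%), where the background over all constant regions was 16.4%. Both stood below both control libraries at 204 (14.0%), against a background of 15.9%. These shares are close to the background, and the remaining 997 regions overlapped. The median absolute difference in mean rank was 16.8 percentile points in the regions ranked higher and 15.4 in those ranked lower. H3K27ac in all 4 libraries was found at 63.7% of those ranked higher, 69.6% of those ranked lower and 63.8% of those that overlapped.

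**Figure D4:**
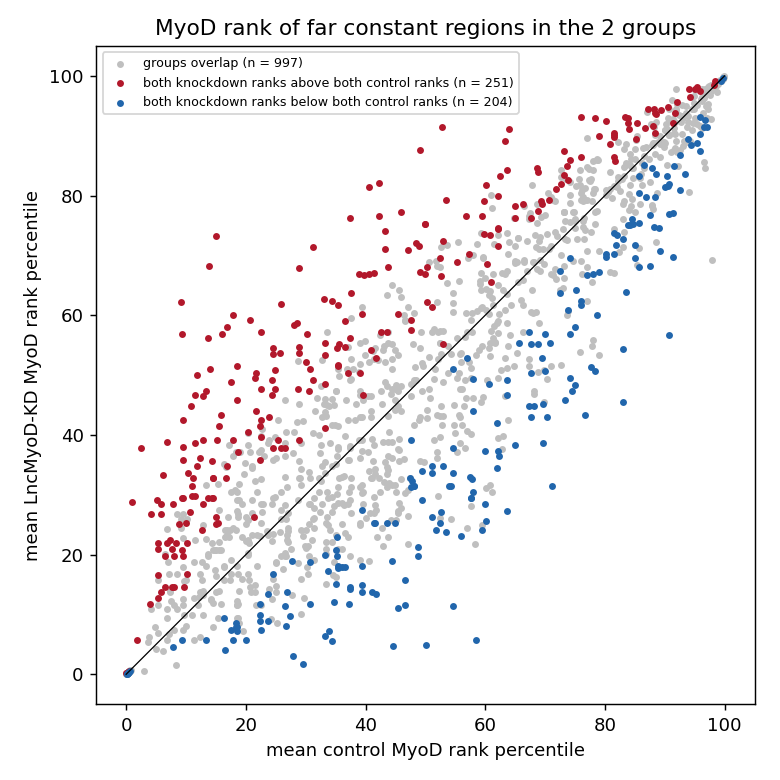
Mean MyoD rank percentile of each far region in LncMyoD-KD (vertical axis) and control libraries (horizontal axis); red marks 251 regions with both LncMyoD-KD ranks above both control ranks, blue marks 204 with both below, grey marks 997 that overlap, and the line marks equal ranks. The points scatter on both sides of the line, most widely at middle ranks.

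The 5 regions farthest apart between the groups in each direction had mean ranks of 24.6 to 51.3. The region on chromosome 1 from 92379202 to 92379776, which overlaps the start of the lncRNA Gm35992 and lies 59.7 kb from Ndufa10 and 183 kb from Hdac4, a class II histone deacetylase gene, had folds of 11.8 and 10.0 in LncMyoD-KD, against 4.86 and 6.62 in control libraries. Its rank was 58.2 points higher in LncMyoD-KD, while its H3K27ac folds were 11.8 and 11.1 in LncMyoD-KD and 10.6 and 10.7 in control libraries. Others ranked higher lay 326 kb from Tshz1, a zinc finger gene, with a difference of 54.3 points, and between Ddx1 at 89.2 kb and Mycn, a Myc family gene, at 188 kb, with 53.1 points, both without H3K27ac in any library. Those 153 kb from Grin2b and 53.8 kb from Klf4, a Krüppel-like factor gene, had 47.6 and 42.6 points. Only the Gm35992 region of these 5 had H3K27ac in all 4 libraries.

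In the other direction, a region 55.0 kb from Glis3, a zinc finger transcription factor gene, had folds of 4.79 and 4.70 in LncMyoD-KD, against 8.59 and 10.6 in control libraries, a rank difference of -52.8 points. That region had H3K27ac in all 4 libraries. One 206 kb from Cryba4 in the desert beside Mn1 had a difference of -45.2 points and no H3K27ac, and one 66.8 kb from Reep3 had -43.3 points and H3K27ac in all 4. The region on chromosome 3 from 52605446 to 52605844 had folds of 4.42 and 4.70 in LncMyoD-KD, against 8.03 and 8.28 in control libraries, a difference of -39.9 points. It shares its 6089 bp H3K27ac region with the strong region 253 kb from Foxo1 described above, whose rank difference was -0.252 points. That region stands at the top of the rank scale, where a large difference is not possible, so the pair is given side by side only. The last, 135 kb from Gm5148, had folds of 5.16 and 7.85 in LncMyoD-KD, against 10.2 and 12.3 in control libraries.

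The far regions lay at a median of 129 kb from the nearest protein-coding gene, with a maximum of 1626 kb. At the limit of the rule, the nearest member lay 50.017 kb from a gene and the nearest constant region left out lay 49.962 kb from one, and 180 members lay within 50 to 60 kb. Beyond 100 kb lay 884, beyond 200 kb 439 and beyond 500 kb 52. They were found on all 20 chromosomes searched, most on chromosomes 13 (135 regions) and 9 (125, of which 43 in the weak block).

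Far sequence was sparser in MyoD regions than the rest of the genome. It covered 941 Mb between genes and held 1.5 constant MyoD regions per Mb, against 5.10 per Mb in the other 1659 Mb, a ratio of 0.294. The weak block on chromosome 9 lies outside this count, because no gene bounds it on the left. For H3K27ac regions with peaks of all 4 libraries the ratio was 0.191, lower than for constant MyoD. The distance rule leaves every protein-coding promoter out of far sequence, and H3K27ac also lies at active promoters. The part of promoters in the lower ratio was not tested. A MyoD region in far sequence was also less often constant. Of 4362 far MyoD regions of any kind 33.3% were constant, against 40.5% of 6259 outside genes within 50 kb and 43.4% of 13643 overlapping genes. The share was 39.5% at 50 to 100 kb and 11.1% beyond 500 kb. These are descriptions of the lists that chose the regions.

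The annotation has 2768 gene deserts over 100 kb, counted as gaps between protein-coding gene bodies, and 653 of them held a far region. The median length of those 653 was 389 kb, against 228 kb for all 2768, and the longest was 4542 kb. The rule itself favours long deserts, which hold more sequence over 50 kb from a gene. The 1507 deserts of 100 to 250 kb held 83.7 Mb of such sequence, and the 281 over 1000 kb held 483 Mb. A single far region was found in 343 deserts, 2 in 138, 3 to 5 in 131, and 6 or more in 41 deserts that together held 318 regions. The weak block on chromosome 9, with no gene on its left, is in none of these counts. Density was lower in longer deserts. It was 3.49 far regions per Mb of far sequence in deserts of 100 to 250 kb, 2.70 in those of 250 to 500 kb, 2.00 in those of 500 to 1000 kb and 0.546 in longer ones. In the same order, H3K27ac in all 4 libraries was found at 71.2%, 65.8%, 65.9% and 63.6% of the regions. With the weak block counted, 510 far regions (35.1%) had another far region within 20 kb and 255 (17.6%) within 5 kb. Without regions of fold below 3 these were 461 (33.0%) and 210 (15.0%). Another constant region lay within 20 kb of 36.6% of far regions, 43.8% of those near genes and 45.1% of those in genes.

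Besides the weak block, the desert with the most far regions lay between Gadd45g, a stress and growth arrest gene, and Diras2. It spans 656 kb of chromosome 13 (51848476 to 52504374) and held 15 far regions, all with H3K27ac in all 4 libraries, and 12 of them ranked above the median of constant regions. The strongest lay 327 kb from Gadd45g, with folds of 24.0 and 23.1 in LncMyoD-KD, against 21.5 and 24.6 in control libraries. The weakest lay 53.9 kb from the gene, with 4.91 and 4.53 in LncMyoD-KD, against 4.46 and 4.64 in control libraries. Of the 15, 12 lay nearer to Gadd45g than to Diras2.

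The desert between Runx1, a Runt family transcription factor gene, and Setd4 spans 757 kb of chromosome 16 and held 13 far regions, 12 with H3K27ac in all 4 libraries and 1 with none. The strongest, 149 kb from Runx1, had folds of 21.4 and 21.9 in LncMyoD-KD, against 23.5 and 18.5 in control libraries. The unacetylated one, 483 kb from Runx1, had 12.2 and 10.6 in LncMyoD-KD, against 8.26 and 17.2 in control libraries. By fold, the control libraries spanned the LncMyoD-KD values in both cases. By rank they did so at the unacetylated one only. At the strongest the groups overlapped, with ranks of 96.50 and 98.09 in LncMyoD-KD, against 98.03 and 94.65 in control libraries.

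The desert between Myc, the proto-oncogene, and Gsdmc spans 1786 kb of chromosome 15 and held 11 far regions, 7 with H3K27ac in all 4 libraries. Its strongest lay 1046 kb from Myc, with 17.9 and 14.5 in LncMyoD-KD, against 18.5 and 12.9 in control libraries. Of the 11, 4 lay in Pvt1, an lncRNA gene beside Myc. The desert between Bcl6, a transcriptional repressor gene, and Lpp, the gene of a LIM protein of focal adhesions, spans 404 kb of chromosome 16 and held 11 far regions within 166 kb, all with H3K27ac in all 4 libraries. The strongest lay 83.9 kb from Bcl6, with 24.3 and 14.5 in LncMyoD-KD, against 22.5 and 21.5 in control libraries.

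**Figure D5:**
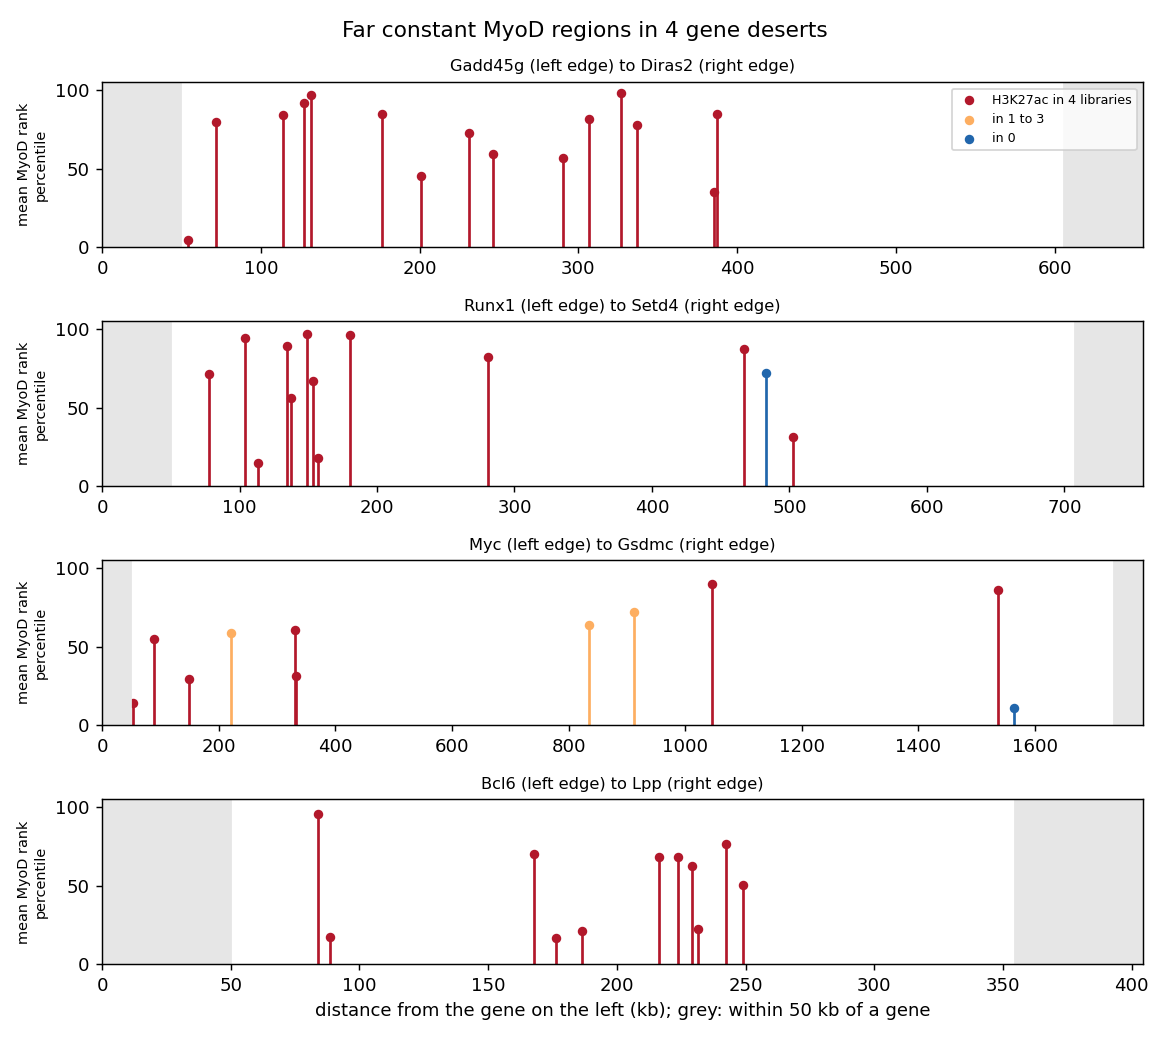
Far regions in 4 gene deserts, at their distance from the gene on the left (kb), with the mean MyoD rank percentile as height; colour gives the number of H3K27ac libraries, and grey marks the 50 kb next to each gene. The 15 regions between Gadd45g and Diras2 and the 11 between Bcl6 and Lpp are all acetylated in 4 libraries, and 12 of the 15 lie nearer to Gadd45g than to Diras2.

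Of the remaining named deserts, those between Thap1 and Zfp703, Gm5148 and Ankrd50, and Pabpc6 and Qk held 10 far regions each, with H3K27ac in all 4 libraries at 7, 7 and 9 of them. Those between Nmbr and Cited2, the gene of a coregulator that binds CBP and p300, between Prl5a1 and Sox4, the gene of an HMG-box transcription factor, and between Mn1 and Cryba4 held 9 each, with H3K27ac in all 4 libraries at 8 of each. They are the longest 3 of 5 deserts with 9 far regions, and the other two lay between Ncam1 and Plet1 and between Gas1 and Dapk1. The Nmbr and Cited2 desert is the longest at 2952 kb, and its far regions spread over 2659 kb.

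The genes bordering these deserts were counted by list. The lists were chosen with earlier results of these data known, so the shares are a description only. Across all protein-coding genes, 4507 border a desert over 100 kb, and for 1222 of them (27.1%) that desert held a far region. Myogenic regulators did so in 12 of 22 (54.5%), limb and mesoderm transcription factors in 46 of 93 (49.5%), and adhesion and axon guidance genes in 42 of 81 (51.9%). Secreted signals with their receptors did so in 25 of 67 (37.3%), extracellular matrix genes in 12 of 33 (36.4%), sarcomere and excitation-contraction genes in 3 of 8 (37.5%), and AP-1 and immediate early genes in 3 of 5 (60%). Markers of other cell types did so in 2 of 9 (22.2%), Cdh5 and Ptprc. Without regions of fold below 3, sarcomere genes stood at 2 of 8 (25%), adhesion genes at 41 of 81 (50.6%) and all genes at 26.9%. Desert length differed between the lists. The deserts beside these genes had a median length of 359 kb for myogenic regulators, 342 kb for limb and mesoderm factors, 920 kb for adhesion genes, 333 kb for signals, 346 kb for matrix genes, 226 kb for sarcomere genes, 123 kb for AP-1 genes and 418 kb for markers of other cell types, against 228 kb for all genes. The part of desert length in these shares was not tested. Bordering a desert does not show which gene, if any, a region acts on.

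Among the myogenic regulators, Hes1, a repressor induced by Notch signalling, had 10 far regions in its deserts, 8 of them with H3K27ac in all 4 libraries. The strongest, 117 kb away, had folds of 14.7 and 19.2 in LncMyoD-KD, against 21.8 and 21.9 in control libraries, so that both LncMyoD-KD folds were below both control folds. Id2, whose protein binds E proteins and keeps them from DNA, had 7, the strongest at 93.0 kb with 18.8 and 11 in LncMyoD-KD, against 13.9 and 15.9 in control libraries. Tcf4, an E protein gene, had 7, the strongest at 548 kb with 18.4 and 18.8 in LncMyoD-KD, against 19.8 and 23.8 in control libraries. Eya4, a transcriptional coactivator gene, had 5 and Mef2a, a MADS-box factor of muscle genes, had 3, all with H3K27ac in all 4 libraries. Tcf12, another E protein gene, had 1 at 105 kb, with 16.2 and 18 in LncMyoD-KD, against 21.5 and 21.2 in control libraries.

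In the other lists, Sox11, an HMG-box factor gene, had 12 far regions, 4 of them with H3K27ac in all 4 libraries and 3 with none. Foxo1 and Zeb1, a zinc finger repressor gene, had 7 each, with H3K27ac in all 4 libraries at 6 and 5. Ncam1 had 9 and Cdh11, a cadherin gene of mesenchymal cells, had 8. The Cdh11 desert is also that of the endothelial marker Cdh5, so these regions are counted under both. Among the signals, Gdf6, a bone morphogenetic protein gene, had 7, Dll1, a Notch ligand gene, had 6, and Cxcr4, a chemokine receptor gene, had 5, its strongest at 78.6 kb with 16.1 and 20.8 in LncMyoD-KD, against 15.5 and 19.9 in control libraries. Jun, an AP-1 gene, had 5 and Thbs1, a matrix glycoprotein gene, had 5, all with H3K27ac in all 4 libraries. Tpm1, the tropomyosin gene of thin filaments, had 3, the strongest at 64.3 kb with 17.7 and 13.3 in LncMyoD-KD, against 15.2 and 16.2 in control libraries.

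Gene deserts are not empty of transcripts. An annotated lncRNA gene overlapped 352 far regions (24.2%), against 20.6% of constant regions outside genes within 50 kb. The median MyoD percentile was 51.4 for far regions in an lncRNA gene and 45.1 for the other 1100, and H3K27ac in all 4 libraries was found at 67.3% and 63.7%. Without regions of fold below 3 these were 51.7 and 47.1 and 68.1% and 66.8%. The lncRNA genes with the most far regions were Gm31718, Gm31814 and 2610307P16Rik with 6 each, followed by Zmiz1os1 and Pvt1 with 4 each. All regions in Gm31718 and Gm31814 had H3K27ac in all 4 libraries, and 5 of 6 in 2610307P16Rik. Whether these lncRNAs are transcribed in these cells was not measured.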

How the data were processed

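MyoD and H3K27ac were profiled by ChIPmentation, in which antibody-bound chromatin is tagmented, in 8 ChIP libraries, 2 per group and antibody. The submitters' processing notes name mm10 and list MACS2 2.1.1, Bowtie2 2.3.2, SAMtools 1.3, bedtools 2.26.0 and Picard 2.9.2. Their options, and the input set against each library, are not given in these sources. Each library has its own peak list, and no list pools replicates. Each deposited peak has a position, a fold enrichment (a linear ratio) at its summit, a −log10 p-value, a −log10 q-value and a whole-number score, all made by the authors. The lowest deposited −log10 q was 1.30. The lists hold no read counts, so depth is unknown and differences in it can move how many peaks were called.

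Peaks were merged at a gap of 0 bp, and an overlap of 1 bp counted as shared. With several peaks of a list in a region, the highest fold was used. Distances and deserts came from the RefSeq gene table of GRCm38.p6. Sign-flip and permutation tests were exact over libraries. The planned E-box search at all summits was limited to promoter windows, since no genome sequence was used here. The named regions were the 20 strongest, the 10 deserts with the most members besides the weak block (ties by the longer desert), the 5 regions farthest apart in each direction, the 5 strongest without H3K27ac, and listed genes that flank a desert with a member. Of 98 adhesion genes 97 matched the table, and all genes of the other lists did. Members and gene lists were chosen with earlier results of these data known. Alternatives were a −log10 q of at least 5, limits of 20 and 100 kb, a merge gap of 100 bp, 50% coverage by H3K27ac, quintiles of MyoD rank, each library left out, a replicate block, and a fold of at least 3. The computations were tested on simulated data. Python 3.11.15, pandas 2.3.3, NumPy 2.4.6, SciPy 1.17.1 and matplotlib 3.10.9 were used.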

Additional observations from a re-analysis of the deposited data

How the results depend on the processing

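Of the values recomputed under alternatives, 86 kept their direction or size, 16 counts moved, 1 difference went to 0 and 6 values changed sign. The H3K27ac deficit of far regions kept its sign in every alternative run, at -8.77 to -2.60 points against constant regions near genes and -12.9 to -6.72 points against those in genes, with the smallest size at a MyoD fold of at least 3, an alternative chosen after the data were seen. The density ratio stayed between 0.235 and 0.352. The MyoD rank difference, far minus other, was 0 at a −log10 q of at least 5 (exact p = 1), where both medians were equal in every library, and changed sign with a limit of 20 kb (0.476), with a fold of at least 3 (0.416) and without control replicate 2, and leaving out one library gave -1.35 to 0.789. The rank difference of LncMyoD-KD minus control, 0.790 in all, was -0.0252 with a limit of 20 kb, and leaving out one library gave -0.368 to 2.95, the lowest without control replicate 2. The H3K27ac difference of LncMyoD-KD minus control changed sign without LncMyoD-KD replicate 2 of H3K27ac, and leaving out one library gave -10.4 to 4.30 points. The cause was not tested. With limits of 20 and 100 kb, members numbered 2266 and 884, those ranked higher in LncMyoD-KD 383 and 154, those ranked lower 341 and 118, and deserts 1112 and 384, as fewer or more regions pass. With one MyoD library left out, which leaves 3 libraries to overlap, 478 to 641 ranked higher and 441 to 560 lower. With a replicate block the rank difference, a description only, was 0.790 and the H3K27ac difference -3.03 points (exact p = 1, smallest possible 0.5). Deviations of same-numbered libraries correlated at 0.108 over constant regions and at 0.118 over far regions. The labels do not say what a replicate number shares, and with 2 pairs this was not tested. Peak lists without read counts limit what can be read from an absent peak.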
